A study of Arabidopsis thaliana with 12 samples.

Results

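Roots of the Arabidopsis thaliana mutant irt1 grown with Fe were compared with roots of the wild type Col-0 grown without Fe, over every probe set of the array other than the Affymetrix controls. These were 4 of 12 arrays, 2 for each group, and 22746 of 22810 probe sets. The mutant carries the allele irt1-2, also called pam42, and is a single line. All seedlings spent 10 days on a control medium and then 5 days on agar cleared of contaminating metals. In that period the irt1 plants received 10 µM Fe-HBED, an Fe chelate, and the wild-type plants compared with them received no Fe. Roots were harvested at an age of 15 days, 3 h after lights on. The 2 groups therefore differ in both genotype and medium. Wild-type roots with Fe (2 arrays) are given beside most results as the level without either change, and shoots of the same 3 treatments (6 arrays) as the other organ. The labels do not say whether plants were pooled for a sample.

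Arabidopsis roots take up iron by acidifying the soil, reducing ferric iron at the surface and importing the ferrous ion through IRT1, a transporter of the outer root cell layers that also carries zinc, manganese and other metals. Under Fe deficiency a cascade of bHLH transcription factors, small signalling peptides of the IMA family and hemerythrin E3 ligases switches these genes on or limits them, and roots secrete coumarins that mobilise iron. A plant without IRT1 is short of iron although the medium holds it, whereas a wild-type plant on medium without Fe keeps a working transporter but finds little to import. The comparison addresses what the loss of the transporter does not share with the medium without Fe in roots.

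Replicate arrays correlated across probe sets with r = 0.9959 in irt1 roots and 0.9951 in wild-type roots without Fe, and the SD of the replicate difference was 0.203 and 0.219 on the log2 scale. Array medians lay between 5.4 and 5.6. The 3′ minus 5′ log2 difference of the RNA quality control actin was 1.4 and 1.7 in wild-type roots without Fe and 1.3 and 1.2 in irt1 roots. That of GAPDH was 0.1 and 0.2, and 0 and 0.1. The actin values of the 2 groups thus did not overlap, and a part of RNA quality in the differences was not tested. The organ labels were checked with 2 marker lists. The summed linear level of 3 root hair genes was 464 to 799 on root arrays and 39 to 54 on shoot arrays, and that of 6 photosynthesis genes was 375 to 938 in roots and 21108 to 28865 in shoots. No probe set is named here for IRT1, nor for any other of the 9 listed genes of Fe uptake and reduction. The mutation was therefore not checked on its own transcript, and a probe set without a gene name may be that of IRT1.

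In the moderated test of limma, 416 of 22746 probe sets (1.83%) were called at an adjusted p under 0.05, 240 of them higher in irt1 roots (1.06%) and 176 lower (0.774%). Of these, 144 (0.633%) differed at least 2-fold, 75 higher and 69 lower, and 12 differed at least 4-fold. The smallest called difference was 0.45 on the log2 scale. All 416 called probe sets had irt1 arrays that did not overlap the wild-type arrays without Fe, which held for 6423 probe sets (28.2%) in all. The call of 416 rests on the spread shared by all 12 arrays. With only the 6 root arrays in the fit 22 probe sets were called, and with only the 4 arrays compared 0 were called (lowest adjusted p = 0.121, with 3014 probe sets at an unadjusted p under 0.05). Leaving out 1 array gave 116 calls without irt1 replicate 1, 81 without irt1 replicate 2, 163 without wild-type replicate 1 and 97 without wild-type replicate 2. The balance of directions turned in 3 of these fits, with 37 higher and 44 lower without irt1 replicate 2, 64 and 99 without wild-type replicate 1, and 8 and 14 with the 6 root arrays. For comparison, with the same fit, wild-type roots without and with Fe differed in 1181 probe sets (5.19%), and irt1 and wild-type roots with Fe in 774 (3.4%). These 3 comparisons share arrays, so their values are set side by side below and not related to each other by a test.

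**Figure D1:**
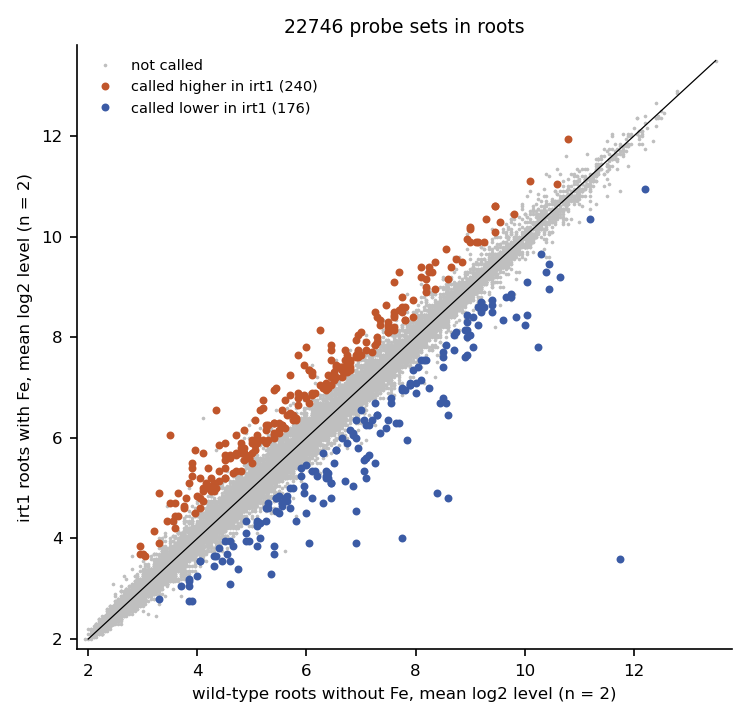
Mean log2 level of each of 22746 probe sets in wild-type roots without Fe (x axis) and irt1 roots with Fe (y axis), 2 arrays each. The line marks equal levels. The 240 probe sets called higher in irt1 lie close above the line, whereas several of the 176 called lower lie far below it, the farthest at a log2 difference of -8.15.

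Several genes of iron signalling were lower in irt1 roots than in wild-type roots without Fe, yet above their level in the wild type with Fe. IMA1 (AT1G47400), the gene of a short peptide that promotes the Fe deficiency response, had log2 levels of 8.6 and 8.5 in wild-type roots without Fe, 6.8 and 6.6 in irt1 roots, and 2.8 and 3.5 in wild-type roots with Fe. The 3 groups did not overlap, and irt1 lay between the others. IMA1 was 3.61-fold lower in irt1 than in the wild type without Fe (log2 difference -1.85 ± 0.21 SE, adjusted p = 0.00141). The corresponding log2 differences from the wild type with Fe were 5.4 for the medium without Fe and 3.55 for irt1. In bulk roots, fewer cells that express a gene and less RNA per cell cannot be told apart.

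Among transcription factors of the cascade, bHLH101 (AT5G04150), a subgroup Ib factor, had log2 levels of 8.3 and 8.2 without Fe, 7.3 and 6.7 in irt1, and 3.7 and 3.6 with Fe. It fell short of the wild type without Fe by a log2 difference of -1.25 ± 0.20 (SE, adjusted p = 0.0109). PYE (AT3G47640), a bHLH repressor of the cascade, stood at 6.7 and 6.8, at 6.0 and 5.8, and at 5.2 in both arrays, in the same order of groups. Its difference was -0.85 ± 0.12 (SE, adjusted p = 0.00626). For both genes the irt1 arrays lay between the 2 wild-type groups. BTSL2 (AT1G18910), for a hemerythrin E3 ligase that limits the response, differed by -0.95 ± 0.17 (SE, adjusted p = 0.0171), with 8.7 and 9.2 without Fe against 8.0 on both irt1 arrays. Its relative BTSL1 (AT1G74770) gave -0.70 ± 0.17 and did not pass the test (adjusted p = 0.0738). The other 9 measured regulators were not called. They include the subgroup IVc factors ILR3, bHLH104, bHLH34 and bHLH115, with differences from -0.25 to 0.05, and bHLH20 at 0.55 (adjusted p = 0.413).

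In all, 4 of 14 measured regulators (of 22 listed) were called lower (28.6%, against 0.774% of all probe sets) and 0 higher, with a median difference of -0.20 against 0 for all probe sets. The calls of bHLH101, PYE and BTSL2 were lost when some single arrays were left out, with adjusted p up to 0.112 for bHLH101 (without irt1 replicate 2 or either wild-type array), 0.0762 for PYE (without replicate 2 of either group) and 0.157 for BTSL2 (without either irt1 array or wild-type replicate 2). IMA1 kept its call in each of these fits (adjusted p 0.017 to 0.0287).

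The called coumarin genes showed the same order of groups. BGLU42 (AT5G36890), a beta-glucosidase gene of coumarin release, had log2 levels of 9.7 and 10.3 without Fe, 8.3 and 8.2 in irt1, and 7.0 on both arrays with Fe. It was 3.36-fold lower in irt1 than in the wild type without Fe (log2 difference -1.75 ± 0.16 SE, adjusted p = 0.000368). S8H (AT3G12900), the scopoletin hydroxylase gene that gives fraxetin, stood at 9.8 and 10.3, at 8.7 and 8.2, and at 4.5 and 4.8 in the same order. The irt1 arrays again lay between the groups, and the difference was -1.6 ± 0.25 (SE, adjusted p = 0.00915). The remaining 4 of 6 measured coumarin genes were not called. F6H1, the feruloyl-CoA hydroxylase gene of scopoletin synthesis, gave -0.85 ± 0.34 (SE, adjusted p = 0.355), HCT -0.50, COSY -0.35 and F6H2 -0.20. The list median was -0.68, against 0 for all probe sets. The 2 called lower were 33.3% of the measured members, against 0.774% of all probe sets. S8H lost its call without replicate 2 of either group (adjusted p up to 0.117), and BGLU42 kept its call in all 4 such fits.

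MTP8 (AT3G58060), a vacuolar manganese transporter induced by Fe deficiency, was also intermediate. Its log2 levels were 6.9 and 7.2 without Fe, 5.4 and 5.3 in irt1, and 3.4 and 3.1 with Fe. The difference from the wild type without Fe was -1.7 ± 0.14 (SE, adjusted p = 0.000148), and the groups did not overlap. MTP8 was 1 of 4 measured genes of zinc and manganese transport (25% called lower, against 0.774% of all probe sets). The other 3 measured genes were not called. They were bZIP19, a zinc deficiency regulator, at -0.45 ± 0.11 (adjusted p = 0.0719), the zinc transporter gene ZIP9 at -0.35 ± 0.25 (adjusted p = 0.761) and MTP11 at 0.15 ± 0.13 (adjusted p = 0.824).

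A list of 16 loci known to respond to Fe held 13 measured members, of which 9 were called lower in irt1 roots (69.2%, against 0.774% of all probe sets), 0 higher and 4 in neither direction, with a median of -0.85. This list was drawn up on earlier results from these samples, so its direction is not independent evidence. AT3G61930, a gene of unknown function, had log2 levels of 9.5 and 10.2 without Fe, 8.7 and 8.1 in irt1, and 5.2 and 5.4 with Fe (difference -1.45 ± 0.23 SE, adjusted p = 0.0104). AT3G07720, a kelch-repeat gene, stood at 12 and 12.4, at 11.0 and 10.9, and at 8.6 and 8.5 (difference -1.25 ± 0.13 SE, adjusted p = 0.00118). The irt1 arrays of both genes lay below the wild type without Fe and above the wild type with Fe. The ankyrin-repeat gene AT5G04730 differed by -1.4 ± 0.25 (SE, adjusted p = 0.0171) and the amino acid transporter gene AT5G38820 by -1.25 ± 0.17 (adjusted p = 0.0051). AT5G05250 and AT3G56360, which were 2.95 and 1.7 higher without than with Fe in the wild type, gave -0.45 and -0.25 and were not called (adjusted p = 0.367 and 0.759). Without single arrays, AT3G61930, AT5G04730 and AT5G38820 lost their call in the fits without replicate 2 of either group. The called members AT3G06890, AT4G19370, AT1G12030 and AT2G20030 each lost theirs in 3 such fits. AT3G07720 and CYP71B5, described below, kept theirs.

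Over all 22 lists, 68 of 303 distinct loci were measured by a named probe set. Of these, 17 were called lower (25%, against 0.774% of all probe sets), 2 higher and 49 in neither direction. Of the 17, 9 belong to the list drawn up on earlier results from these samples, and without that list 8 of 55 measured loci were called lower (14.5%). The other lists were also chosen with earlier results of these data known, so this share is not independent evidence either. Without single arrays the number called was 12 without irt1 replicate 1, 6 without irt1 replicate 2, 16 without wild-type replicate 1 and 7 without wild-type replicate 2. Only 2 were called with the 6 root arrays alone. Root hair genes were not called. XTH26, a cell wall enzyme gene, gave -0.50 ± 0.13 (SE, adjusted p = 0.0932), and the expansin genes EXPA18 and EXPA7 gave -0.30 and -0.05. The 2 members called higher were ARPN (AT2G02850), for the copper protein plantacyanin, at 0.75 ± 0.15 (SE, adjusted p = 0.0303), and PSAN, described with the plastid genes below. ARPN stood at 10.3 on both irt1 arrays against 9.5 and 9.6 without Fe and 9.1 and 9.4 with Fe, and lost its call whichever root array was left out (adjusted p 0.148 to 0.202). No member was called among 2 measured genes each of Fe storage, Fe-S assembly, Fe distribution, antioxidant enzymes and defence, 7 of chlorophyll and haem synthesis and 1 of the circadian clock. The genes listed were 9 each for Fe storage, Fe-S assembly and antioxidant enzymes, 19 for Fe distribution and 8 for defence. They were 23 for chlorophyll and haem and 11 for the clock. So few measured members, with no ferritin gene, cannot show whether these functions differed. At an unadjusted p under 0.05 the same fit held 2454 probe sets in all.

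**Figure D2:**
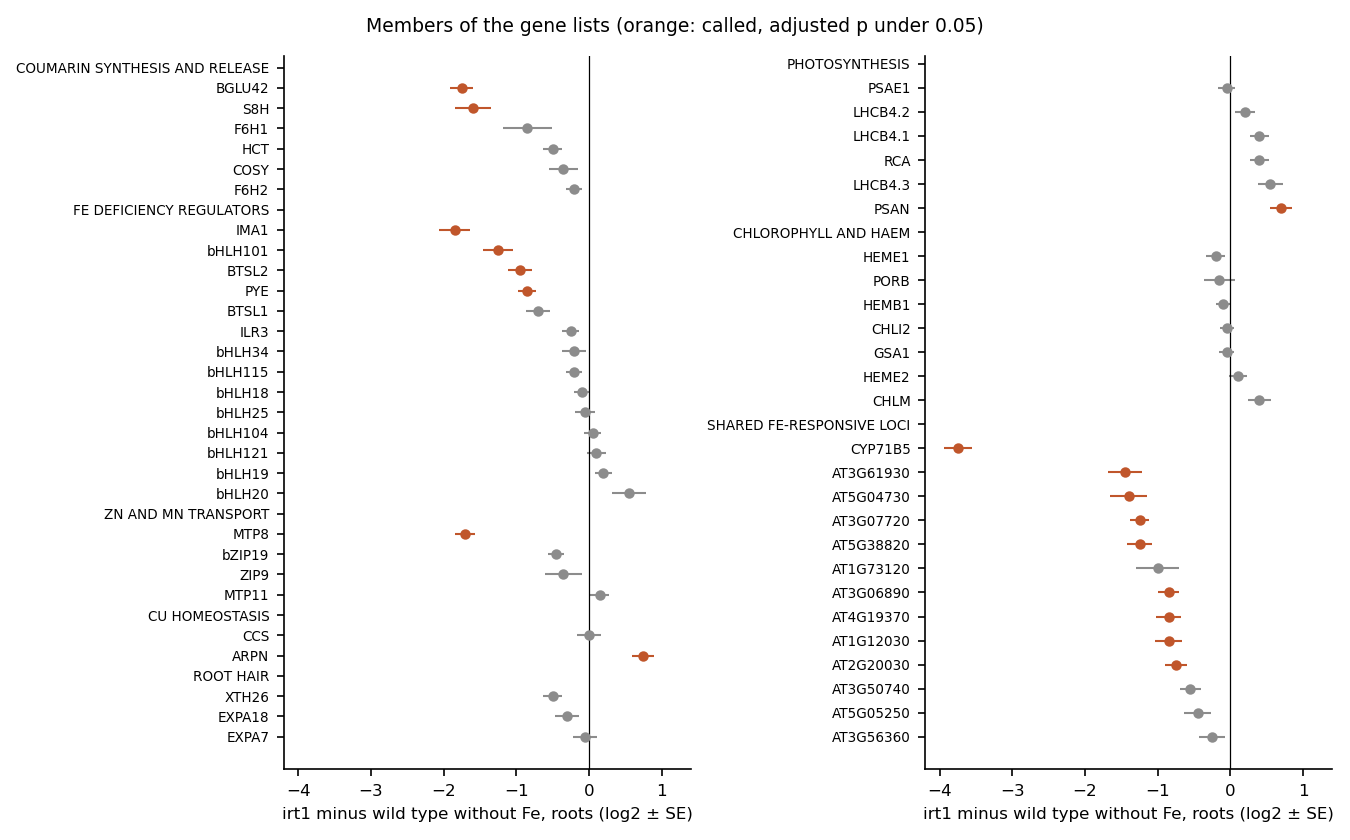
Log2 difference of irt1 roots with Fe minus wild-type roots without Fe (x axis, bars are SE of the 12-array model) for the measured members of 8 gene lists (coumarins, Fe deficiency regulators, Zn and Mn transport, Cu homeostasis, root hair, photosynthesis, chlorophyll and haem, shared Fe-responsive loci). Orange points passed the test. Among these, CYP71B5 at -3.75, IMA1 at -1.85 and BGLU42 at -1.75 lie farthest to the left, and PSAN and ARPN are the called members on the right.

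The lowest named gene was CYP71B5 (AT3G53280), a cytochrome P450 gene. Its log2 levels were 7.5 and 8.0 in wild-type roots without Fe, 4.0 on both irt1 arrays, and 3.3 and 3.1 in wild-type roots with Fe. The irt1 arrays lay near those of the wild type with Fe and far below those without Fe, a log2 difference of -3.75 ± 0.20 (SE, adjusted p = 3.87e-06). The difference of irt1 from the wild type with Fe was 0.80 (adjusted p = 0.0538). AT2G30670, of the short-chain dehydrogenase family, was intermediate, with 8.0 and 7.7 without Fe, 6.2 and 5.7 in irt1, and 4.7 and 4.1 with Fe (difference -1.9 ± 0.22 SE, adjusted p = 0.00141). Both genes kept their call whichever array was left out.

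For 3 further genes the irt1 arrays were at or near the wild type with Fe. AT3G02480, of the late embryogenesis abundant (LEA) family linked to drying and abscisic acid, had log2 levels of 6.6 and 7.2 without Fe, 4.5 and 4.6 in irt1, and 4.6 on both arrays with Fe (difference -2.35 ± 0.28 SE, adjusted p = 0.00199). AT5G19890, a class III peroxidase gene, stood at 8.3 and 8.9, at 6.4 and 6.5, and at 6.3 and 6.2 (difference -2.15 ± 0.18 SE, adjusted p = 0.000203). AT4G33720, of the CAP family that includes the defence protein PR1, stood at 10.4 and 10.1, at 7.0 and 8.6, and at 8.6 and 7.3. Its replicates were far apart in irt1 and in the wild type with Fe, though below the wild type without Fe on every array (difference -2.45 ± 0.47 SE, adjusted p = 0.0242). The call was lost without irt1 replicate 1 or either wild-type array (adjusted p up to 0.181), whereas AT3G02480 and AT5G19890 kept theirs.

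Another 2 of the 10 lowest genes were below both wild-type groups. AT5G35940, a jacalin-type lectin gene, had log2 levels of 5.6 and 5.1 without Fe, 3.3 on both irt1 arrays, and 4.4 and 4.6 with Fe (difference -2.05 ± 0.15 SE, adjusted p = 7.97e-05). AT3G56370, which encodes a leucine-rich repeat receptor kinase, stood at 7.3 and 7.2 without Fe, 5.4 and 5.6 in irt1, and 7.4 and 7.3 with Fe. The 2 wild-type groups overlapped, with a difference between media of -0.10 (adjusted p = 0.84), and irt1 was apart from both (difference from the wild type without Fe -1.75 ± 0.14 SE, adjusted p = 0.000148). Among probe sets with no gene name here, 254550_at had the largest difference of the comparison (-8.15 ± 0.17 SE, adjusted p = 4.73e-10). It fell from 11.7 and 11.8 without Fe to 3.7 and 3.5 in irt1, against 7.9 and 7.7 with Fe. Whether 254550_at is a probe set of IRT1 itself was not tested. The probe set 262091_at was intermediate instead, with 8.3 and 8.9 without Fe, 5.0 and 4.6 in irt1, and 2.8 and 2.9 with Fe. Its difference from the wild type without Fe was -3.8 ± 0.21 (SE, adjusted p = 4.54e-06). All 4 kept their calls without each array.

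**Figure D3:**
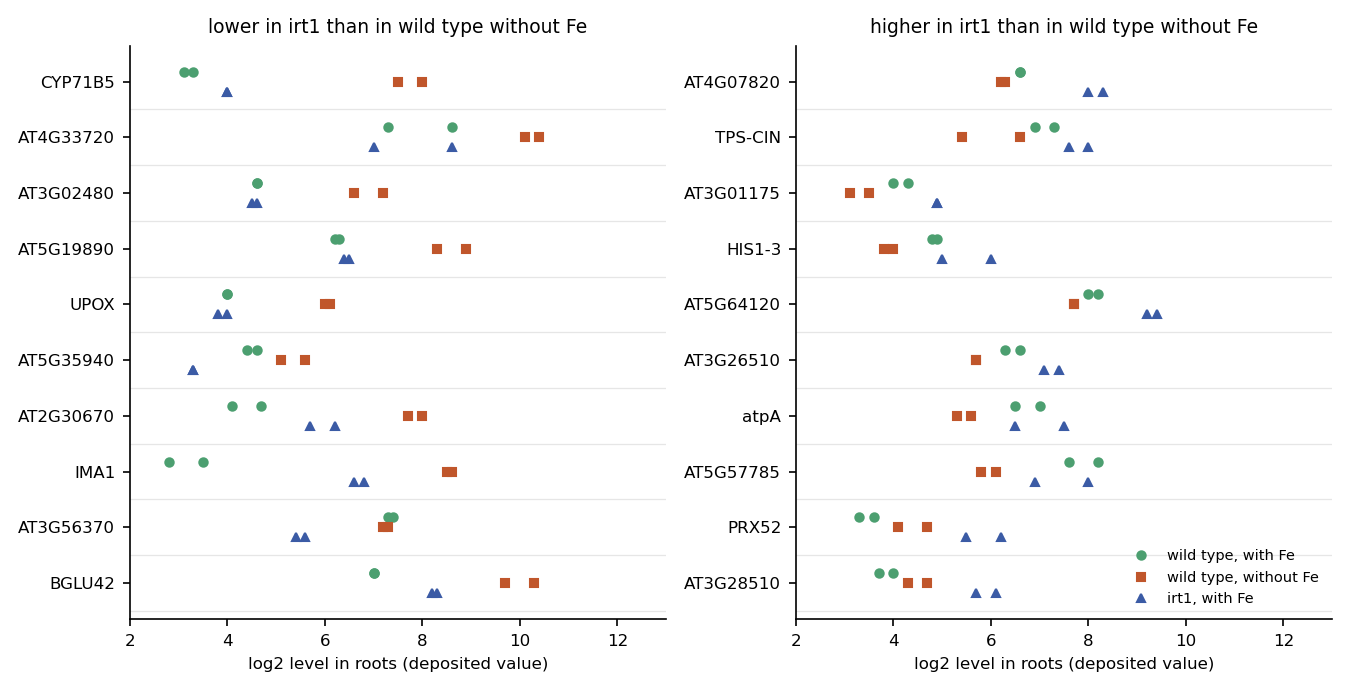
Log2 levels on the 6 root arrays (x axis) of the 10 lowest and 10 highest named genes of irt1 minus wild type without Fe, with 1 point per array. For UPOX, AT3G02480 and AT5G19890 the irt1 arrays lie beside the wild type with Fe, for IMA1, AT2G30670 and BGLU42 between both wild-type groups, and for AT4G07820, PRX52 and AT3G28510 above both.

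The largest named differences above the wild type without Fe were smaller than those below it. AT4G07820, another CAP family gene, had log2 levels of 8.0 and 8.3 in irt1, 6.2 and 6.3 in the wild type without Fe, and 6.6 on both arrays with Fe. The irt1 arrays lay above both wild-type groups, with a difference from the wild type without Fe of 1.9 ± 0.16 (SE, adjusted p = 0.000148) and from the wild type with Fe of 1.55 (adjusted p = 0.000245). Class III peroxidase genes, whose products act in the cell wall, appeared on this side too. PRX52 (AT5G05340) stood at 6.2 and 5.5 in irt1, 4.7 and 4.1 without Fe, and 3.6 and 3.3 with Fe (difference 1.45 ± 0.23 SE, adjusted p = 0.00959). AT5G64120 stood at 9.4 and 9.2, at 7.7 on both arrays, and at 8.0 and 8.2 (difference 1.6 ± 0.28 SE, adjusted p = 0.0153). The mitochondrial AAA-ATPase family gene AT3G28510 was at 6.1 and 5.7 in irt1, 4.7 and 4.3 without Fe, and 4.0 and 3.7 with Fe (difference 1.4 ± 0.17 SE, adjusted p = 0.00196). In these 4 genes every irt1 array was above every wild-type array. PRX52 lost its call without irt1 replicate 1 or wild-type replicate 2 (adjusted p up to 0.112) and AT5G64120 without any 1 of the 4 arrays (0.105 to 0.134), while the other 2 kept theirs.

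A further 3 genes were called lower in the wild type without than with Fe, with irt1 nearer to the wild type with Fe or above it. AT3G26510, of the PB1 domain family, stood at 7.1 and 7.4 in irt1, 5.7 on both arrays without Fe, and 6.3 and 6.6 with Fe (difference 1.55 ± 0.14 SE, adjusted p = 0.000397). AT3G01175 was at 4.9 on both irt1 arrays, at 3.1 and 3.5 without Fe, and at 4.0 and 4.3 with Fe (difference 1.6 ± 0.15 SE, adjusted p = 0.000536). AT5G57785 was at 8.0 and 6.9, at 6.1 and 5.8, and at 8.2 and 7.6 (difference 1.5 ± 0.29 SE, adjusted p = 0.0249). In all 3 the irt1 arrays lay above those of the wild type without Fe, and those of AT5G57785 overlapped the wild type with Fe. For TPS-CIN (AT3G25830), a root terpene synthase gene for cineole, the levels were 8.0 and 7.6 in irt1, 6.6 and 5.4 without Fe, and 7.3 and 6.9 with Fe (difference 1.8 ± 0.30 SE, adjusted p = 0.0126). HIS1-3 (AT2G18050), a drought-inducible linker histone gene, was at 5.0 and 6.0, at 3.8 and 4.0, and at 4.9 and 4.8 (difference 1.6 ± 0.26 SE, adjusted p = 0.0105). Replicates of TPS-CIN without Fe and of HIS1-3 in irt1 were far apart. Among unnamed probe sets 261459_at and 259987_at were 2.2 ± 0.28 and 1.8 ± 0.11 (SE) higher. Without single arrays, TPS-CIN (without either irt1 array or wild-type replicate 2), HIS1-3 (without irt1 replicate 2 or either wild-type array) and AT5G57785 (without irt1 replicate 1 or either wild-type array) lost their calls, with adjusted p up to 0.129, 0.1 and 0.225.

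Some transcripts of the plastid genome were called higher in irt1 roots than in wild-type roots without Fe. The plastid genome encodes core photosystem subunits, parts of the ATP synthase, and ribosomal and RNA polymerase subunits, and its transcripts are scarce in root plastids. Of 69 plastid-genome probe sets 66 had a positive and 0 a negative difference, and 13 were called higher (18.8%, against 1.06% of all probe sets) and 0 lower. The median difference was 0.60, with quartiles of 0.40 and 0.95, against 0 for all probe sets. The median log2 level of the 69 was 5.9 and 6.5 on the irt1 arrays, 5.0 on both arrays without Fe, and 6.2 and 6.4 with Fe. The irt1 arrays were thus above both arrays without Fe and on either side of those with Fe. This group was singled out after its values were seen.

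By role, the called plastid genes included photosystem I (psaB, psaI), photosystem II (psbC, psbI, psbK, psbZ), the cytochrome b6f complex (petB), ATP synthase (atpA), the large subunit of Rubisco (rbcL), the small ribosomal subunit (rps2) and the splicing factor gene matK. The log2 levels of psaB were 7.5 and 8.2 in irt1, 6.4 and 6.5 without Fe, and 7.6 and 7.7 with Fe (difference 1.4 ± 0.19 SE, adjusted p = 0.00412). Those of petB were 9.3 and 9.7, 8.5 and 8.2, and 9.7 and 9.9 (difference 1.15 ± 0.16 SE, adjusted p = 0.00623). The highest difference was that of atpA, with 6.5 and 7.5, 5.6 and 5.3, and 6.5 and 7.0 (difference 1.55 ± 0.31 SE, adjusted p = 0.0309). In each of these genes irt1 replicate 2 was above replicate 1, and both were above the wild type without Fe. Without irt1 replicate 2, 1 plastid probe set was called, and the median difference was 0.55 with 65 positive. Without wild-type replicate 2, 1 was called, without wild-type replicate 1, 4, and without irt1 replicate 1, 11 (medians 0.55, 0.70 and 0.75). With the 6 root arrays alone 0 were called, with 66 positive. The call of psaB was kept without each array, and the other 12 lost theirs in at least 1 of these fits (adjusted p up to 0.339).

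In shoots the median difference of the 69 plastid probe sets was -0.15, with 0 called (0.409% of all probe sets were called). The shoot minus root difference was called for 0 of them (0.189% of all probe sets). With shares so low, 0 calls among 69 are no result about plastid transcripts. The mitochondrial genome, with 23 probe sets, had 0 called (1.83% of all probe sets were called) and a median of 0.10 in roots. Its median log2 level was 3.35 in irt1 roots and 3.3 in wild-type roots without Fe, below the first quartile of all values (3.5). Most of these probe sets were thus near the floor, and they cannot show whether the difference was particular to plastids. Nuclear photosynthesis genes gave 1 call, higher, among 6 measured members (of 38 listed), with 1.06% of all probe sets called higher. A single call among so few is no result about the list. PSAN (AT5G64040), a nuclear photosystem I subunit gene, was at 5.5 and 5.9 in irt1, 5.1 and 4.9 without Fe, and 6.8 and 7.0 with Fe (difference 0.70 ± 0.15 SE, adjusted p = 0.0431), so irt1 stayed below the wild type with Fe. Its call was lost whichever root array was left out (adjusted p 0.0522 to 0.366). LHCB4.3, LHCB4.1, RCA and LHCB4.2 gave 0.55, 0.40, 0.40 and 0.20, and PSAE1 -0.05. As markers of shoot RNA, the 6 genes summed to a linear level of 466 to 533 in irt1 roots, 375 to 414 in wild-type roots without Fe and 814 to 938 in wild-type roots with Fe, with no member at the bottom of the scale (log2 4.0 to 8.2). Their part in the plastid result was not tested.

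**Figure D4:**
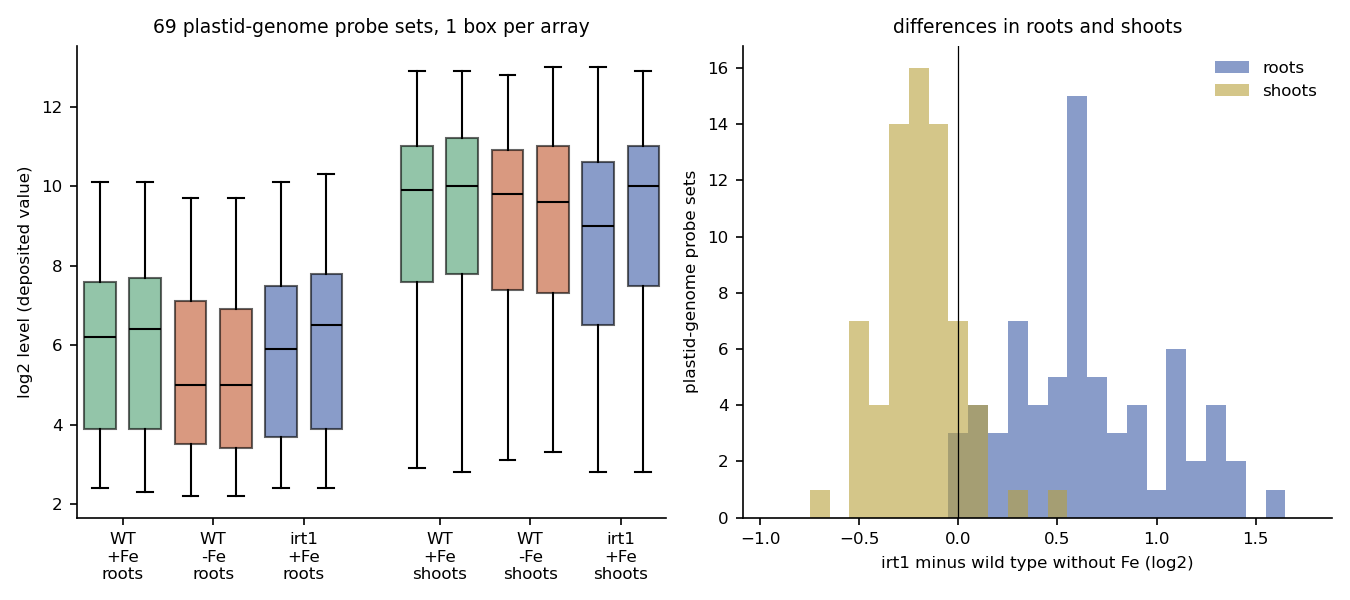
Left, log2 levels of 69 plastid-genome probe sets, with 1 box per array (median, quartiles, and whiskers to the lowest and highest). Right, their log2 differences of irt1 minus wild type without Fe, counted in bins of 0.1, in roots and shoots. Root medians are 5.9 and 6.5 in irt1 and 5.0 in both arrays without Fe, and the root differences lie between 0 and 1.55.

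Several genes known to rise when mitochondrial function is disturbed were lower in irt1 in both organs. UPOX (AT2G21640), a mitochondrial protein gene that responds to oxidative stress, had log2 levels of 6.1 and 6.0 in wild-type roots without Fe, 3.8 and 4.0 in irt1 roots, and 4.0 on both arrays with Fe. The irt1 arrays overlapped the wild type with Fe, and UPOX was 4.44-fold lower than in the wild type without Fe (log2 difference -2.15 ± 0.23 SE, adjusted p = 0.00112). In shoots it stood at 9.2 and 8.3 without Fe, 6.7 and 6.4 in irt1, and 5.1 and 5.0 with Fe (difference -2.2, adjusted p = 0.00221). AT5G09570, for a small twin-cysteine protein, was at 6.4 and 6.2 without Fe, 4.7 on both irt1 arrays, and 4.7 and 5.0 with Fe in roots (difference -1.6 ± 0.22 SE, adjusted p = 0.00536). NDB4, a gene for an external alternative NADH dehydrogenase, was at 4.5 and 4.7, at 3.4 and 3.7, and at 3.2 and 3.3 (difference -1.05 ± 0.21 SE, adjusted p = 0.0292). Each of these had both irt1 root arrays below both arrays of the wild type without Fe.

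Of 24 such loci 12 were measured, and this list was drawn up after values had been seen. In roots 5 were called lower (41.7%, against 0.774% of all probe sets) and 0 higher, with a median of -0.53, and all 12 differences were negative. The other 2 called were AT5G51440, a mitochondrial small heat shock protein gene, at -1.5, and AT2G41730 at -1.35. In shoots 8 were called lower (median -1.63, with 0.286% of all probe sets called lower), among them all 5 called in roots. The alternative NADH dehydrogenase gene NDB2 gave -0.20 in roots and -0.30 in shoots and was called in neither. AT2G04050, a transporter gene of the MATE family, was at 8.2 and 6.9 in shoots without Fe and 4.0 on both irt1 shoot arrays, against 4.1 on both and 3.7 and 3.6 in roots. It was the 1 member whose shoot difference (-3.55) and root difference (-0.45) were called apart (-3.1, adjusted p = 0.011). Only UPOX kept its root call without each array. The number called lower was 1 without either irt1 array or wild-type replicate 1, 2 without wild-type replicate 2 and 1 with the 6 root arrays alone, with all 12 differences negative each time.

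**Figure D5:**
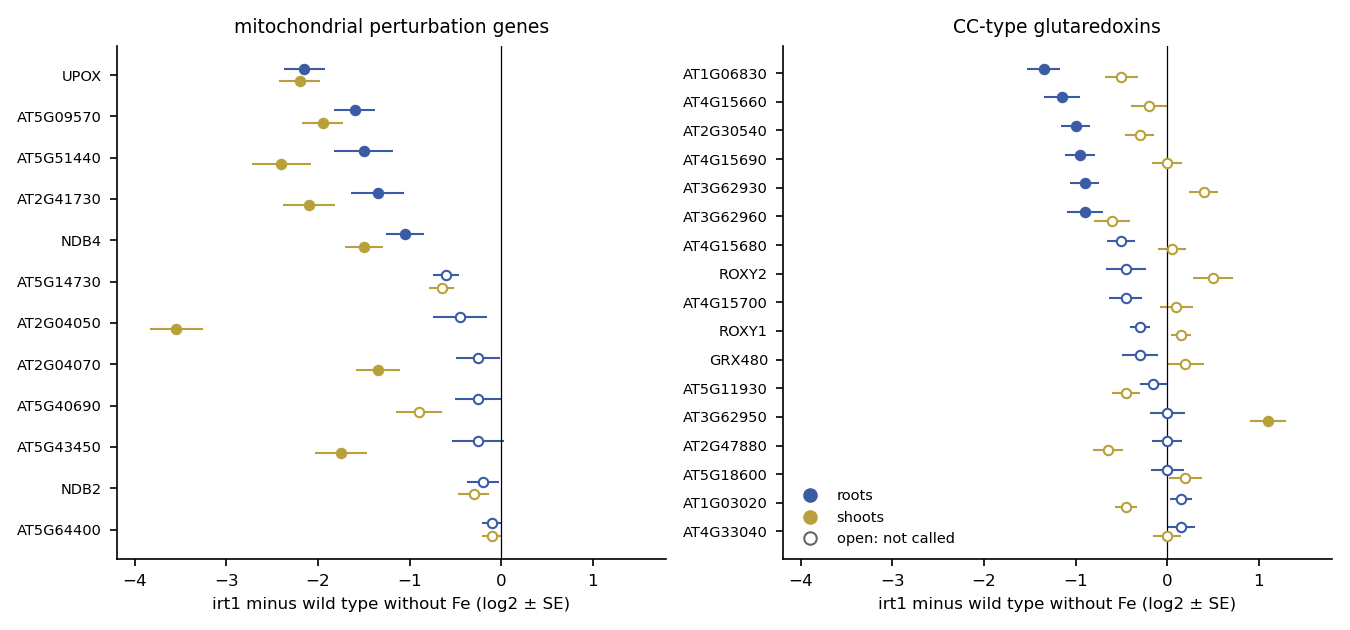
Log2 differences of irt1 minus wild type without Fe (x axis, bars are SE of the 12-array model) in roots (blue) and shoots (yellow) for 12 mitochondrial perturbation genes and 17 CC-type glutaredoxin genes. Filled points passed the test. In the left panel 5 root and 8 shoot points are filled, all on the negative side, and in the right panel 6 root points on the negative side and 1 shoot point on the positive side.

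CC-type glutaredoxins, a plant family of small redox proteins that interact with TGA transcription factors and several of which respond to nitrogen status, included 6 genes called lower in irt1 roots. Of 21 listed loci 17 were measured, 6 were called lower in roots (35.3%, against 0.774% of all probe sets), 0 higher and 11 in neither direction, with a median of -0.45. This group too was chosen after values had been seen. AT1G06830 had log2 levels of 6.3 and 6.6 without Fe, 5.2 and 5.0 in irt1, and 5.4 and 5.3 with Fe (difference -1.35 ± 0.18 SE, adjusted p = 0.0043). AT2G30540 was at 5.1 and 4.8, at 4.1 and 3.8, and at 4.1 and 4.0 (difference -1.0 ± 0.16 SE, adjusted p = 0.00999). Irt1 lay at or under the wild type with Fe in both.

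AT4G15660 and AT4G15690 gave -1.15 ± 0.20 and -0.95 ± 0.16 (SE). These belong to a run of neighbouring, similar loci and may share signal with AT4G15680 (-0.50, not called) and AT4G15700 (-0.45, not called). AT3G62930 was at 5.5 and 5.6 without Fe, 4.9 and 4.4 in irt1, and 5.4 on both arrays with Fe (difference -0.90 ± 0.16 SE, adjusted p = 0.017), so it was below both wild-type groups. AT3G62960 gave -0.90 ± 0.20 (SE, adjusted p = 0.0465). In shoots 0 of the 17 were called lower and 1, AT3G62950, higher (1.1, adjusted p = 0.0387), with a median of 0. Of all probe sets, 0.286% were called lower and 0.123% higher in shoots. The shoot minus root difference was called for 0 of the 17 (0.189% of all probe sets). With shares so low, the counts of 0 are no result about this family. Without single arrays the number called lower was 3 without irt1 replicate 1, 0 without irt1 replicate 2 (with medians of -0.50 and -0.35) and 1 without either wild-type array, and with the 6 root arrays alone it was 1.

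The same comparison in shoots, which shares no arrays with that in roots, called 93 probe sets (0.409%), 28 higher (0.123%) and 65 lower (0.286%). Both comparisons come from the same fit with 1 estimate of the spread per probe set, so a probe set with a small spread is favoured in both. Of the 416 root calls 20 (4.81%) were called in the same direction in shoots, which is 21.5% of the shoot calls. Of all probe sets, 0.409% were called in shoots and 1.83% in roots in either direction. The 20 were 16 lower and 4 higher, and 1 further probe set was called in opposite directions. Of the 20, 14 had a single gene name. Apart from the 5 mitochondrial perturbation genes, 2 of these were genes that the medium without Fe raised in wild-type roots, AT3G02480 and AT4G17670, the latter a zinc-finger protein gene of the FLZ family (root difference -0.85, shoot difference -0.90). AT4G17670 lost its root call whichever of the 4 root arrays was left out (adjusted p 0.0648 to 0.242).

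For the remaining 7 the difference between the 2 wild-type root groups was not called, and irt1 was apart in both organs. FHIT (AT5G58240), a gene for a nucleotide hydrolase of the histidine triad family, was at 7.2 and 7.1 in wild-type roots without Fe, 7.3 and 7.4 with Fe, and 5.7 and 5.6 in irt1 roots. In shoots it was at 7.7 and 7.6, at 7.6 and 7.8, and at 5.9 and 6.0. In neither organ did irt1 come near either wild-type group (root difference -1.5 ± 0.11 SE, adjusted p = 7.59e-05, shoot difference -1.7, adjusted p = 5.29e-05). AT3G56370, described above, was lower in shoots by a log2 difference of -1.7 (adjusted p = 0.000446). AGL26 (AT5G26880) gave -1.1 ± 0.13 (SE, adjusted p = 0.00199) in roots and -0.90 in shoots. AT4G12790, of the P-loop nucleotide hydrolase superfamily, gave -0.90 ± 0.11 (adjusted p = 0.00179) and -1.1. AT1G20070 was lower by -0.55 and -0.85. AT5G26270 and AT3G53370 were higher, by 1.25 and 0.60 in roots and 1.15 and 0.95 in shoots. The wild-type difference between media in roots ranged from -0.40 for AT5G26270 to 0.05 for AT3G53370 in these 7 genes, none of them called. FHIT, AT3G56370, AGL26 and AT4G12790 kept their root calls without each array, and AT1G20070, AT5G26270 and AT3G53370 lost theirs in some of these fits (adjusted p up to 0.369, 0.135 and 0.129).

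The test of the shoot difference minus the root difference called 43 probe sets (0.189%), 19 higher (0.0835%) and 24 lower (0.106%). CYP71B5, AT2G30670 and AT5G35940 had the highest named values, 3.8 ± 0.28, 2.2 and 2.1, and each was lower in irt1 roots with shoot differences of 0.05, 0.30 and 0.05. Of these, CYP71B5 stood in shoots at 6.4 and 6.1 without Fe, 6.5 and 6.1 in irt1, and 6.2 and 5.8 with Fe. The groups of CYP71B5 overlapped in shoots, unlike in roots. AT5G35940 was at 2.7 to 2.9 on every shoot array, below the first quartile of all values (3.5). Being near the floor there, it cannot show whether the response differs between organs. The lowest named values were those of AT2G04050, AT1G24575 at -2.0 and AT4G07820 at -1.8. AT1G24575 was 1.2 higher in irt1 roots and 0.80 lower in irt1 shoots on the log2 scale (shoot adjusted p = 0.0698). Without single arrays the number called was 14 to 45, lowest without irt1 root replicate 2, and it was 17 without wild-type shoot replicate 1, 19 without wild-type root replicate 2 and 26 without irt1 root replicate 1. In these fits AT2G30670 lost the call of its difference in 6 of 8 (kept without irt1 root replicate 1 and wild-type shoot replicate 1, adjusted p up to 0.0808), AT2G04050 in 5 of 8 (without any 1 of the 4 root arrays or irt1 shoot replicate 1, up to 0.0851) and AT4G07820 in 2 of 8 (without irt1 root replicate 2 or wild-type shoot replicate 1, up to 0.0678), while CYP71B5, AT5G35940 and AT1G24575 kept theirs in all 8.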

How the data were processed

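RNA from roots and shoots was hybridised to 12 Affymetrix single-colour arrays, 2 per group. The deposited values are log2 expression per probe set, made with RMA per the submitters' processing notes. Neither its version nor joint or separate normalisation of the organs is given in the sources used here. Values ran from 1.9 to 13.5 with 1 decimal, so a 2-array difference moves in steps of 0.05, and differences near the lower end are understated. The number of arrays limits the precision.

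Probe sets were named with the platform annotation, possibly outdated, and symbols updated through the RefSeq gene table: 13513 had 1 gene, 503 several and 8730 were not listed. A locus took its brightest probe set.

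limma 3.58.1 in R 4.3.3 fitted 1 mean per group over all 12 arrays (6 residual and 5.29 prior degrees of freedom, no trend, two-sided). A call needed a Benjamini-Hochberg adjusted p under 0.05 over 22746 probe sets. Adjusted p-values and SE are from this fit. A check of the fit on simulated data used 1 spread per probe set in all groups. It therefore cannot show whether the real groups share their spread. The labels call replicates biological without naming separate cultures, so p-values measure the spread between these samples. An exact permutation test of 2 against 2 cannot go below 0.333 and was not run.

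Named genes were the 10 highest and 10 lowest single-gene probe sets with groups apart, up to 3 called members per list, the 2 highest and 2 lowest unnamed probe sets, and for the organ difference 3 each way. Others are list members or were chosen after their values were seen. The comparison, members and lists were chosen with earlier results of these data known. Of 22 lists, 7 had 0 measured members, among them Fe uptake and reduction (9 listed genes) and the endodermis markers. A planned grouping by gene descriptions was not run. Alternatives covered the arrays fitted, a replicate block, prior variance, array weights, scaling, a filter on dim probe sets and leaving out each array.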

Additional observations from a re-analysis of the deposited data

Results flagged for a closer look

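For 43 probe sets the difference of irt1 from the wild type without Fe was not the same in shoots as in roots by the test of that difference (adjusted p under 0.05 over all probe sets, limma). The 15 of them that the text or its lists name are given here. Values are shoot minus root log2 differences. Groups of 2 arrays were too small for a search for outlying samples.

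Lower in irt1 roots and near 0 in shoots were CYP71B5 (3.8, adjusted p = 0.000127), AT2G30670 (2.2), AT5G35940 (2.1), the peroxidase gene AT5G19890 (2.05, adjusted p = 0.00894), BGLU42 (1.7), MTP8 (1.5) and AT5G38820 (1.45, adjusted p = 0.0488), as was the unnamed 262091_at (3.95). The unnamed 254550_at gave 7.15 (adjusted p = 9.94e-08), with -8.15 in roots and -1.0 in shoots. On every shoot array AT5G35940, AT5G19890 and MTP8 were at log2 2.7 to 3.4, below the first quartile of all values (3.5). The probe set 262091_at was at 2.8 to 3.9 there. So near the floor, a shoot difference near 0 cannot show whether the response differs between organs.

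Higher in irt1 roots and near 0 in shoots were AT4G07820 (-1.8), AT3G01175 (-1.75), AT3G26510 (-1.55, adjusted p = 0.011) and the unnamed 259987_at (-1.7, adjusted p = 0.000893). AT1G24575 gave -2.0 (adjusted p = 0.00403), with 1.2 in roots and -0.80 in shoots. AT2G04050 gave -3.1 (adjusted p = 0.011), with -0.45 in roots and -3.55 in shoots. Shoot levels were 3.1 to 3.5 for AT3G01175 and 3.5 to 4.2 for AT4G07820 on the log2 scale. AT3G01175 was thus near the floor in shoots, with the same limit.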

How the results depend on the processing

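The 416 calls became 22 with the 6 root arrays only (18 at least 2-fold against 144, 2 list members against 19) and 0 with only the 4 arrays compared (0 at least 2-fold), fits with fewer residual degrees of freedom by construction. In the fits without 1 array they were 81 to 163, with 71 to 106 at least 2-fold and 6 to 16 list members. Of 32 named genes 18 kept their call in each fit without 1 array, and 8 with the 6 root arrays. No named gene that was called changed sign under any alternative run, and named genes that were not called were not followed. The organ difference, called for 43, gave 16 with only the 8 arrays of its groups, 78 with a variance trend and robust prior, and 14 to 45 without 1 array, where a lone array is assumed to vary like the other groups. The replicate block gave 521 calls in roots and 75 for the organ difference. The labels do not say whether arrays with the same replicate number were handled together. Correlations of deviations between groups were -0.092 to 0.199, most of them above 0, and 0.182 for the groups compared. Whether the replicate number marks a shared batch was not tested. Array weights gave 598, median centring 435 (66.4% higher, against 57.7%, with the median of all probe sets moved to 0.05), repeated quantile normalisation 436, a trend and robust prior 487 and the brighter probe sets alone 411. The groups chosen after values were seen were refitted under the same alternatives, and array weights called 23 plastid probe sets. With the mean of the probe sets of a locus 20 list members were called.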
